A study of Mus musculus with 12 samples.

Results

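The genes of the matrix metalloproteinases (MMPs), of the ADAMTS proteases and of their protein inhibitors, the TIMPs, were followed across 12 primary mammary tumours of mice. They were taken by gene name from a count table of 56860 genes, which gave 22 MMP genes, 19 ADAMTS genes, the 4 TIMP genes and Bmp1, 46 genes in all. A further MMP gene was not analysed here. Each of 3 genotypes had 4 tumours. C3_KO tumours carried the C3Tdt allele with MMTV-Cre and MMTV-PyMT, and S1pr1_KO tumours carried floxed S1pr1 (S1pr1fl/fl) with MMTV-Cre and MMTV-PyMT. WT tumours carried MMTV-Cre and MMTV-PyMT per the design text, although their strain label names MMTV-PyMT alone. All tumours were thus driven by the same oncogene, polyoma middle T antigen under the mouse mammary tumour virus promoter, and all were collected at 4.5 months. Because that promoter is active chiefly in mammary epithelium, fibroblasts, vessels and leukocytes may retain C3 or S1pr1 in the knockouts. The study asked what conditional knockout of S1pr1, a receptor for sphingosine-1-phosphate, or of C3, a complement component, does to primary tumours. Nothing in the labels states that tumours of 1 genotype were from different mice, so p-values measure only the spread between these samples.

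MMPs and ADAMTS proteases are zinc endopeptidases that are secreted or held at the cell surface, made as inactive proenzymes, and cut proteins of the extracellular matrix. TIMPs bind the active site of MMPs and, in part, of ADAMTS proteases, while Bmp1 and several ADAMTS proteases trim procollagen so that fibrils can form. In mammary tumours many MMPs are made by fibroblasts, macrophages, neutrophils and endothelial cells, whereas Mmp7 is typical of epithelium.

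A group of 9 of the MMP genes lies together on chromosome 9. RefSeq promoter sequences (build GRCm38.p6, older than the authors' build) were at hand for 31 of the 46 genes. In the 250 bases upstream of the start, the AP-1 motif TGANTCA, which Fos and Jun proteins bind, was found for 8 of these 31 genes (25.8%), against 7.82% of all 27025 genes in the sequence table. All 8 (Mmp1a, Mmp1b, Mmp3, Mmp7, Mmp10, Mmp12, Mmp13 and Mmp20) belong to the chromosome 9 group, whose remaining gene, Mmp27, had no match. TATAAA on the gene's own strand was found for 9 of the 31 genes (29.0%), against 8.94% of all genes. The GC box GGGCGG, searched on both strands, was found for 16 of the 31 genes (51.6%), against 35.4% of all genes. TGANTCA reads the same on both strands, and no matches overlapped in the windows printed. The 80 bases before the start are shown for Mmp13 and Mmp10, which were among the 4 genes of widest range over the tumours, and for Mmp3, a neighbour with the same motifs that was highest in another tumour. Timp1 and Mmp14, which had GC boxes and no TGANTCA, are shown beside them. Capitals mark the matches to the AP-1, TATA and GC box motifs. All 5 genes are on the plus strand, at chr9:7272434-7272513 for Mmp13, chr9:7502262-7502341 for Mmp10, chr9:7445742-7445821 for Mmp3, chrX:20870086-20870165 for Timp1 and chr14:54431518-54431597 for Mmp14.
Mmp13: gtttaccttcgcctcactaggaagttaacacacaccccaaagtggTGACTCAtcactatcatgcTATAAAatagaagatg
Mmp10: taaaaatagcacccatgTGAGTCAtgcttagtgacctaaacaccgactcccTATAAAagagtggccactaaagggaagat
Mmp3: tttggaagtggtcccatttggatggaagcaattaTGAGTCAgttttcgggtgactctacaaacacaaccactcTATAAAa
Timp1: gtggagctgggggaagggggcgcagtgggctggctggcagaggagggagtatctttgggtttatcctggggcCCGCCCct
Mmp14: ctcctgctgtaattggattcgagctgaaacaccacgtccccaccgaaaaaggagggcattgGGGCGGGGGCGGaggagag
A match describes letters in a window, and binding was not measured here.

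Total counts per library, with M for 1e6 counts, were 237.1 to 424.6 M in C3_KO, 230.4 to 380.3 M in S1pr1_KO and 327.1 to 484.0 M in WT. Levels are given as FPKM, which is counts per kilobase of gene length per 1e6 counts, on library totals scaled by edgeR's trimmed mean of M values (TMM). C3 was at 8.09 to 14.6 FPKM in C3_KO tumours and 8.42 to 35.4 FPKM in WT tumours, and S1pr1 was at 0.850 to 2.44 FPKM in S1pr1_KO tumours and 0.947 to 2.63 FPKM in WT tumours. Neither targeted gene passed an adjusted p of 0.05 in its knockout (edgeR's quasi-likelihood test, adjusted p = 0.765 for C3 and 0.874 for S1pr1). All 10 luminal epithelial markers were above 0 in each library. Their sum was 3690 to 6510 CPM in C3_KO, 2840 to 6160 CPM in S1pr1_KO and 3720 to 7580 CPM in WT, where CPM is counts per 1e6 counts on the same scaled totals. In these bulk samples fewer cells of a type and less RNA per cell cannot be told apart. C3_KO replicate 3 stood apart, with 95500 CPM of 8 milk protein genes, against 3390 to 4850 CPM in the other C3_KO tumours and 1290 to 4360 CPM in WT. Salivary gland markers summed to 152000 CPM in S1pr1_KO replicate 1 and 5020 CPM in S1pr1_KO replicate 4, against at most 209 CPM in any other library. Skeletal muscle markers summed to 3700 CPM in WT replicate 2, 2060 CPM in C3_KO replicate 2 and 2270 CPM in S1pr1_KO replicate 1. They summed to at most 541 CPM in any other library.

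Across all tumours the message for these proteases and inhibitors came mainly from a few genes. By median over the 12 libraries, 6 genes were at or above 10 FPKM, 15 between 1 and 10, 15 between 0.1 and 1, and 10 below 0.1. The 6 were Timp2 (52.7 FPKM), Timp3 (34.2 FPKM), Mmp15 (31.6 FPKM), Mmp2 (30.4 FPKM), Mmp14 (25.7 FPKM) and Timp1 (17.5 FPKM). Mmp2, Mmp14 and Mmp15 held 62.8 to 80.4% of the summed MMP level in a library, and Timp1 to Timp3 held 99.7 to 99.9% of the summed TIMP level. Adamts1, Adamts2 and Adamts10 held 50.9 to 67.1% of the summed ADAMTS level. The summed ADAMTS level was 34.4 to 54.7 FPKM in C3_KO, 28.7 to 40.9 FPKM in S1pr1_KO and 21.0 to 39.8 FPKM in WT, with overlapping ranges. The summed MMP level was 120.4 to 163.5 FPKM in C3_KO, 101.0 to 146.6 FPKM in S1pr1_KO and 127.2 to 157.7 FPKM in WT. The summed TIMP level was 70.5 to 160.3 FPKM in C3_KO, 101.0 to 125.0 FPKM in S1pr1_KO and 110.9 to 158.5 FPKM in WT. The MMP and TIMP sums overlapped as well.

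**Figure D1:**
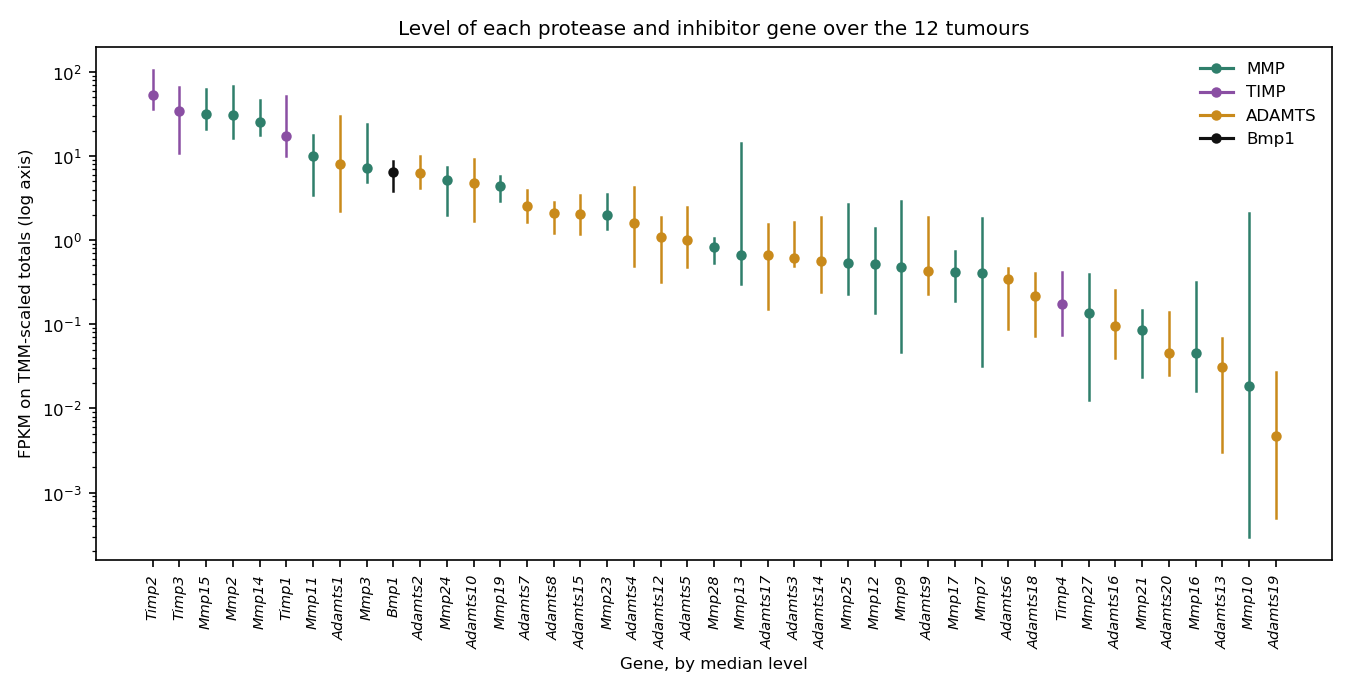
Level of each gene in FPKM on a log axis, ordered by median, with the point at the median and the line from the lowest to the highest of the 12 tumours. Mmp1a, Mmp1b and Mmp20 have a median of 0 and are left out, and the lowest value of Mmp10, 0, is drawn at the foot of its line. Timp2 is highest and Adamts19 lowest, and the long lines of Mmp13, Mmp10 and Mmp9 show their spread between tumours.

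A filter on low counts kept 43 of the 46 genes for testing, among them 19 of the 22 MMP genes and all ADAMTS, TIMP and Bmp1 genes. Mmp1a, a collagenase of the mouse, had 6 counts in WT replicate 1, 2 in WT replicate 3 and 2 in C3_KO replicate 3. Mmp1b, its near copy, had 20 counts, all in C3_KO replicate 3, and reads that match both copies could be split between them. Mmp20, the tooth enamel protease enamelysin, had 22 counts in S1pr1_KO replicate 3 and at most 4 in any other library. A count of 0 allows up to 3 counts in a library, for counting error only, so these genes were at or near the limit of detection almost everywhere. Of the 46 genes, 22 overlap another gene in the annotation and 13 overlap a protein-coding one, and their levels are uncertain where reads were not counted by strand.

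No gene of the family passed the test in any comparison. With edgeR's quasi-likelihood test over 30660 genes and an adjusted p under 0.05 as the threshold, 0 of 43 genes passed in C3_KO against WT, where 0.0% of all genes passed. The same count, 0 of 43 against 0.0% of all genes, was found in S1pr1_KO against WT and in S1pr1_KO against C3_KO. At an unadjusted p under 0.05, 5 of 43 genes (11.6%) stood out in C3_KO against WT, where 6.23% of all genes did. All 5 were higher in C3_KO, as were 3.62% of all genes. For S1pr1_KO against WT the count was 4 of 43 (9.3%), below the 15.5% of all genes, with 3 higher and 1 lower in S1pr1_KO (7.69% and 7.78% of all genes). For S1pr1_KO against C3_KO it was 2 of 43 (4.65%), against 3.4% of all genes, and both were lower in S1pr1_KO (1.63% of all genes). Other tools differed. DESeq2 called 1 gene, Mmp13, in C3_KO against WT (0.24% of all genes) and none in S1pr1_KO against WT (3.02% of all genes) or S1pr1_KO against C3_KO (0.373%). Limma-voom with quality weights called 7 genes in S1pr1_KO against WT, where it called 25.5% of all genes, and none in C3_KO against WT (0.0163%). Limma called none of the 43 on log2(FPKM + 1), where it called 0.00326% of all genes in C3_KO and 0.108% in S1pr1_KO against WT. On log2(FPKM + 0.1) it again called none, against 0.0% and 0.14% of all genes. Both comparisons with WT use the same 4 WT libraries, so their values are given side by side and not counted as repeats of each other.

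More genes had log2 fold changes above 0 than below 0 in each comparison with WT. In C3_KO against WT, 28 of 43 genes had a log2 fold change above 0 (65.1%, against 54.2% of all genes), with a median of 0.26 against 0.053 for all genes. Without C3_KO replicate 2 the C3_KO count was 24 of 43 (55.8%), with a median of 0.15 against 0.058 for all genes. In S1pr1_KO against WT, 25 of 43 were above 0 (58.1%, against 51.7% of all genes), with a median of 0.13 against 0.026. Without WT replicate 3 the S1pr1_KO count was 21 of 43 (48.8%), with a median of -0.032. Among the ADAMTS genes, with all libraries, 14 were higher and 5 lower in C3_KO and 13 higher and 6 lower in S1pr1_KO. The MMP genes were divided, with 11 higher and 8 lower in C3_KO and 9 higher and 10 lower in S1pr1_KO. In S1pr1_KO against C3_KO, 16 genes were higher and 27 lower (46.2% of all genes higher; median -0.12, against -0.032 for all genes), among them 4 MMP genes higher and 15 lower. Without C3_KO replicate 2, edgeR gave 22 of 43 higher in that comparison (median 0.013), and limma-voom with quality weights gave 24 of 43 (median 0.011). Where libraries were scaled by their totals alone, the median of all genes moved to 0.19 in C3_KO and 0.20 in S1pr1_KO, and 72.1% and 62.8% of the 43 genes were then above 0.

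**Figure D2:**
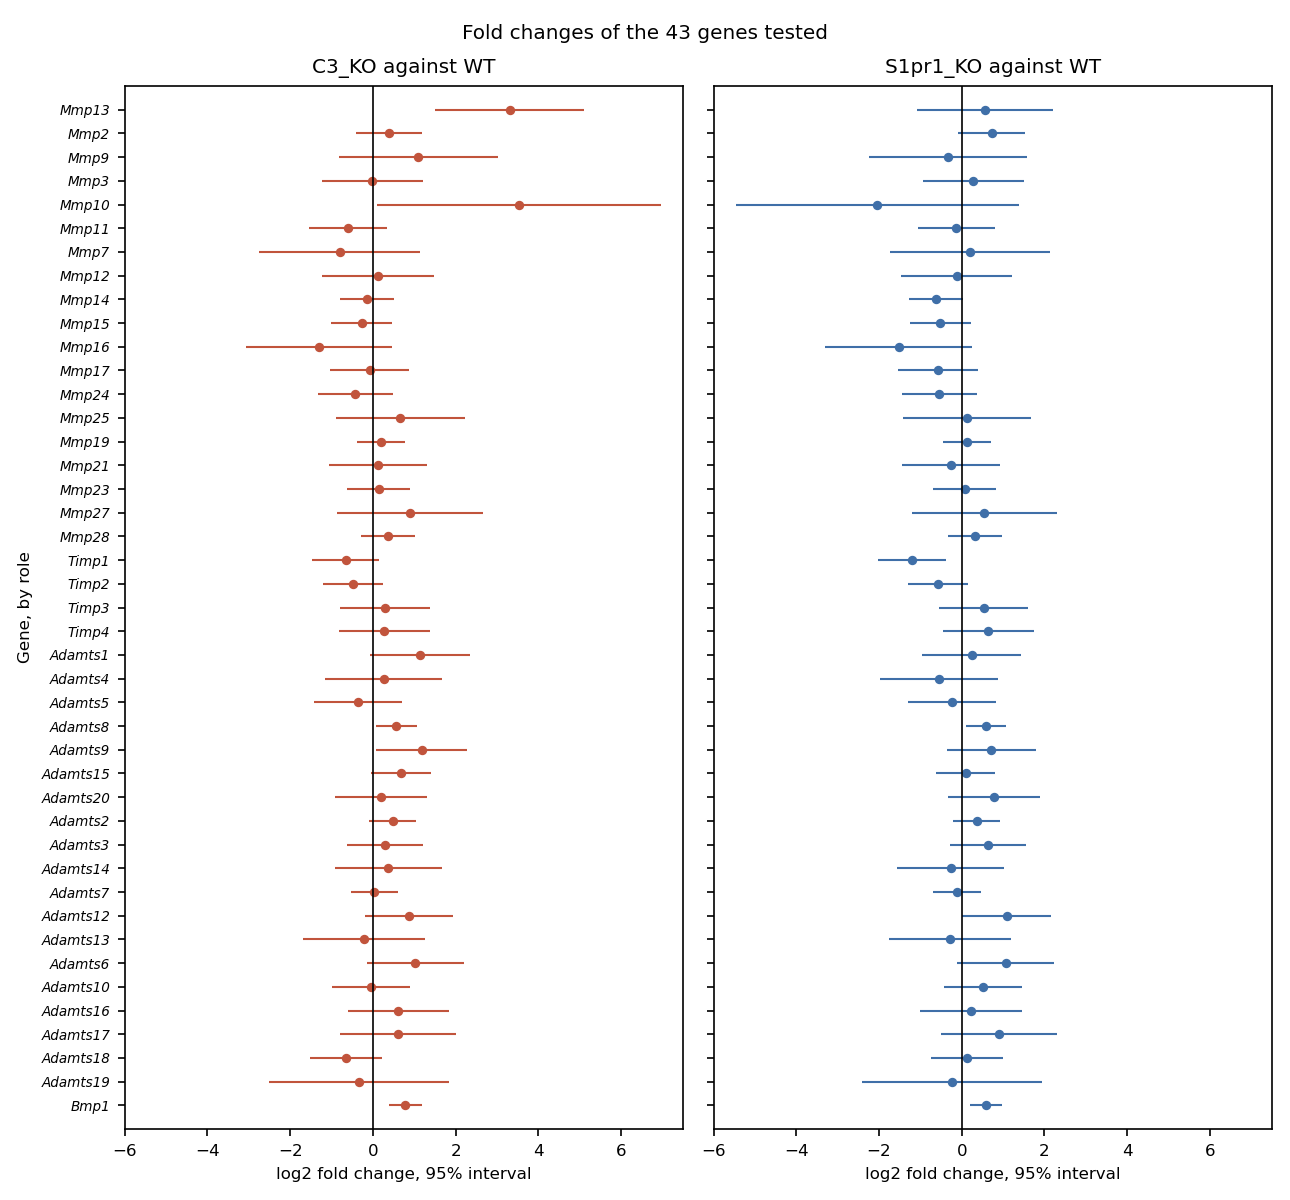
Log2 fold changes of the 43 tested genes in C3_KO against WT on the left and S1pr1_KO against WT on the right, with points at the estimate and lines for the 95% interval, genes ordered by role. The intervals of Mmp13, Mmp10, Adamts8, Adamts9 and Bmp1 in C3_KO and of Timp1, Adamts8, Adamts12 and Bmp1 in S1pr1_KO do not cross 0.

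Among the collagenases, Mmp13, which cuts fibrillar collagen, varied most in C3_KO. Mmp13 stood at 0.599, 3.79, 14.3 and 0.864 FPKM in C3_KO tumours 1 to 4, 0.587, 0.838, 0.495 and 1.00 FPKM in S1pr1_KO tumours and 0.548, 0.745, 0.387 and 0.302 FPKM in WT tumours. The high values were those of C3_KO replicates 2 and 3, while replicates 1 and 4 lay within the range of the other genotypes, and the groups overlapped. Its mean was 4.89 ± 6.44 FPKM in C3_KO, 0.731 ± 0.232 FPKM in S1pr1_KO and 0.495 ± 0.195 FPKM in WT (SD, n = 4 each). In C3_KO against WT the log2 fold change was 3.30 ± 0.83 (SE), with an unadjusted p of 0.00155 and an adjusted p = 0.765 by edgeR. DESeq2 gave an adjusted p of 0.00644 for the same comparison, with a log2 fold change of 3.33. In S1pr1_KO against WT the log2 fold change was 0.56 ± 0.76 (edgeR adjusted p = 0.749), and in S1pr1_KO against C3_KO it was -2.74 ± 0.81 (unadjusted p = 0.00486 by edgeR, adjusted p = 1.00). Without C3_KO replicate 3, the edgeR values were 1.82 in C3_KO against WT (adjusted p = 0.887) and -1.26 in S1pr1_KO against C3_KO. Mmp13 is also made by hypertrophic chondrocytes and osteoblasts. The 8 bone and cartilage markers summed to 683 CPM in C3_KO replicate 2, against 98.1 to 170 CPM in the other C3_KO tumours, 118 to 171 CPM in S1pr1_KO and 75.7 to 289 CPM in WT, with Ibsp and Sost at 0 in 3 libraries each. Most of the sum in C3_KO replicate 2 was from Col2a1 (373 CPM) and Alpl (305 CPM). Sp7 was highest there too, at 0.299 CPM. Col10a1 (0.547 CPM) and Bglap (3.25 CPM) were below their highest WT values of 1.24 and 97.2 CPM. C3_KO replicate 3, the highest for Mmp13, had the lowest sum of the C3_KO tumours, 98.1 CPM. The part of bone and cartilage cells in the Mmp13 values was not tested.

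Of the stromelysins, Mmp3 and Mmp10 cut proteoglycans and activate other MMPs. Mmp10 was the only stromelysin that was highest in C3_KO replicate 3. Mmp10 stood at 0.00770, 0.131, 2.10 and 0.00796 FPKM in C3_KO tumours 1 to 4, 0, 0.00314, 0.0272 and 0.0151 FPKM in S1pr1_KO tumours and 0.133, 0.0308, 0.0215 and 0.0103 FPKM in WT tumours. It was highest in C3_KO replicate 3 (1142 counts) and had at most 80 counts in any other library, and the groups overlapped. For Mmp10 the log2 fold change was 3.53 ± 1.59 in C3_KO against WT (unadjusted p = 0.0448 by edgeR, adjusted p = 0.765) and -5.57 ± 1.78 in S1pr1_KO against C3_KO (unadjusted p = 0.00806 by edgeR). Without C3_KO replicate 3 the 2 values were 0.011 and -2.06, without WT replicate 1 the first was 4.73, and without S1pr1_KO replicate 3 the second was -6.46. Mmp3, whose promoter carries the same motifs, was at 6.22 to 20.8 FPKM in C3_KO, 6.74 to 22.0 FPKM in S1pr1_KO and 4.95 to 24.4 FPKM in WT. Its highest value was in WT replicate 2, and its log2 fold change in C3_KO against WT was -0.017 ± 0.57 (edgeR adjusted p = 0.996). Mmp11, stromelysin 3, which is activated inside the cell by furin, stood at 9.58, 10.3, 7.39 and 3.42 FPKM in C3_KO tumours 1 to 4, 13.8, 4.07, 17.9 and 6.85 FPKM in S1pr1_KO tumours and 13.6, 7.38, 12.0 and 13.7 FPKM in WT tumours. Its highest value was in S1pr1_KO replicate 3, and the groups overlapped. Mmp11 overlaps Chchd10 on the opposite strand, whose counts were 1.09 to 1.75 times those of Mmp11, so its level is uncertain where reads were not counted by strand.

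Of the 9 genes on chromosome 9, Mmp13, Mmp12, Mmp1b and Mmp10 were highest in C3_KO replicate 3, and Mmp3, Mmp7, Mmp1a, Mmp20 and Mmp27 were highest in other libraries. Mmp12, the macrophage elastase, was at 1.40 FPKM in C3_KO replicate 3, close to the 1.33 FPKM of WT replicate 1, and at 0.136 to 1.40 FPKM over the 12 tumours. Mmp12 and Mmp1b overlap each other on opposite strands. Mmp7, matrilysin, a small MMP of epithelium, stood at 0.480, 0.570, 0.225 and 0.0321 FPKM in C3_KO tumours 1 to 4, 0.0767, 0.218, 1.81 and 0.508 FPKM in S1pr1_KO tumours and 0.317, 0.342, 1.03 and 0.595 FPKM in WT tumours. S1pr1_KO replicate 3 was highest and C3_KO replicate 4 lowest, with overlapping groups. Mmp27 was at 0.0127 to 0.394 FPKM over the 12 tumours.

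C3_KO replicate 3 was the highest library for 10 of the 43 tested genes (23.3%), against 12.6% of all tested genes. These were Mmp9, Mmp10, Mmp12, Mmp13, Mmp25, Adamts1, Adamts4, Adamts9, Adamts15 and Bmp1. The same library was the lowest for 7 of the 43, among them Timp2, Timp3 and Mmp2, against 11.4% of all tested genes. Neutrophil markers summed to 5900 CPM in this library, against 375 to 971 CPM in the other C3_KO tumours, 360 to 1300 CPM in S1pr1_KO and 766 to 1280 CPM in WT. Most of the sum in each library was from Ltf, lactoferrin, a neutrophil granule protein that mammary epithelium also secretes into milk. Ltf was at 5790 CPM in C3_KO replicate 3, against 358 to 958 CPM in the other C3_KO tumours, 349 to 1260 CPM in S1pr1_KO and 749 to 1270 CPM in WT. The 9 other neutrophil genes summed to 109 CPM in this library and 9.05 to 16.0 CPM in the other C3_KO tumours. Their sum was 9.25 to 37.7 CPM in S1pr1_KO and 7.24 to 17.1 CPM in WT. Of the 109 CPM in C3_KO replicate 3, S100a8 held 34.2 CPM and S100a9 held 44.9 CPM. Of the 10 neutrophil genes, 8 were highest there and none was at 0. Skin keratinocyte markers summed to 560 CPM in it, against 11.9 to 86.7 CPM in the other C3_KO tumours, 3.18 to 108 CPM in S1pr1_KO and 4.41 to 17.4 CPM in WT, and macrophage markers to 165 CPM, the lowest of the 12 libraries. The part of these cells in the levels of the 10 genes was not tested.

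**Figure D3:**
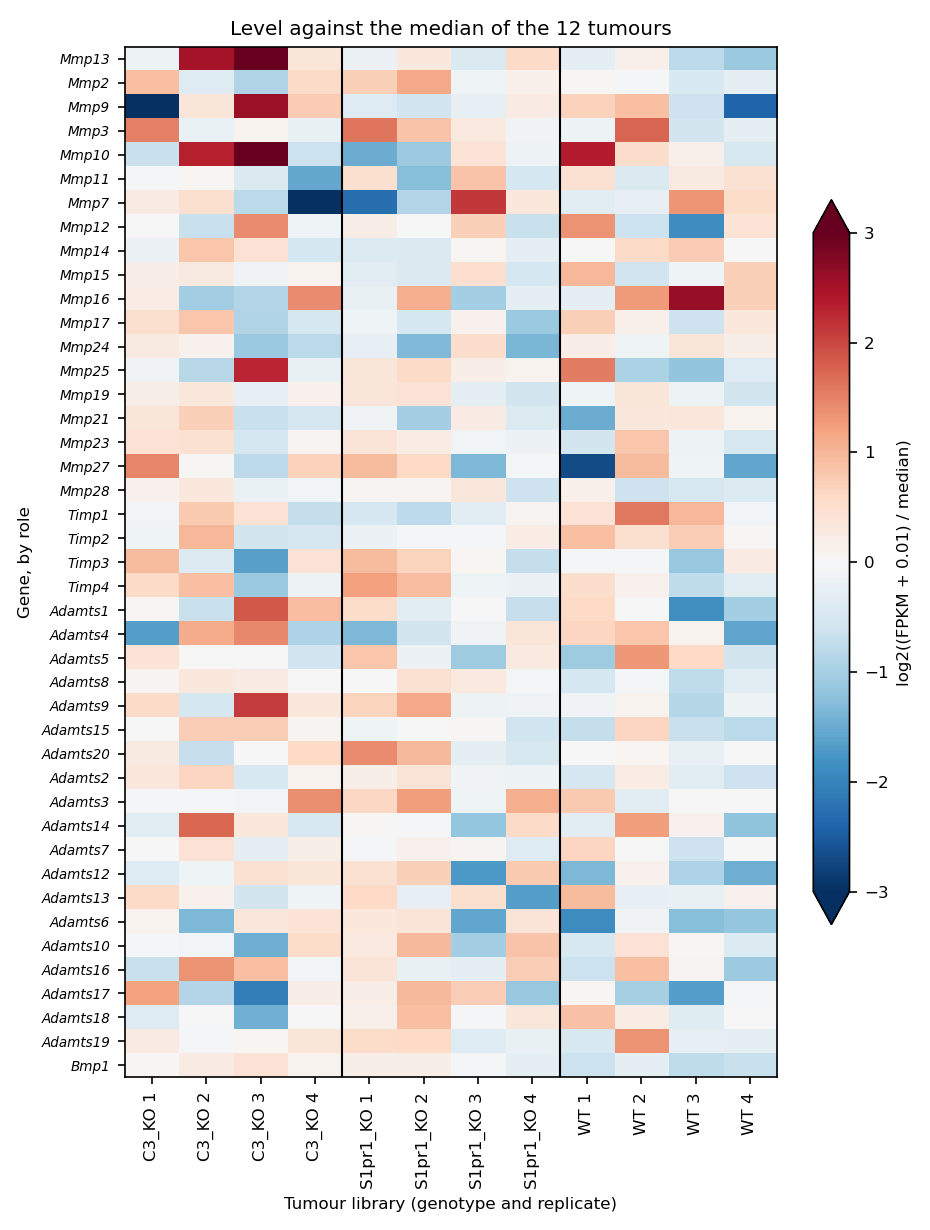
Level of the 43 tested genes in each tumour as log2 of (FPKM + 0.01) over the median of the 12 tumours, with genes ordered by role, C3_KO, S1pr1_KO and WT from left to right, and colours limited to 3 in either direction. The column of C3_KO replicate 3 holds deep red cells for Mmp13 and Mmp10 and blue cells for several other genes.

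The gelatinases cut denatured collagen and basement membrane collagen. Mmp2, gelatinase A, made largely by fibroblasts, stood at 56.6, 23.4, 16.3 and 45.1 FPKM in C3_KO tumours 1 to 4, 49.6, 67.3, 27.9 and 33.6 FPKM in S1pr1_KO tumours and 30.9, 29.9, 22.0 and 25.4 FPKM in WT tumours. Values were highest in S1pr1_KO replicate 2 and C3_KO replicate 1, and the groups overlapped. Mmp2 had a log2 fold change of 0.39 ± 0.37 in C3_KO (edgeR adjusted p = 0.806) and 0.72 ± 0.38 in S1pr1_KO (edgeR adjusted p = 0.370), and the C3_KO value was 0.062 without C3_KO replicate 1. Mmp9, gelatinase B, stored in neutrophil granules, stood at 0.0468, 0.623, 2.94 and 0.824 FPKM in C3_KO tumours 1 to 4, 0.364, 0.319, 0.404 and 0.566 FPKM in S1pr1_KO tumours and 0.781, 0.906, 0.307 and 0.0826 FPKM in WT tumours. C3_KO held both the highest value, in replicate 3, and the lowest, in replicate 1. Mmp9 had a log2 fold change of 1.09 ± 0.89 in C3_KO (edgeR adjusted p = 0.779), and -0.062 without replicate 3. In S1pr1_KO it was -0.33 ± 0.88 (edgeR adjusted p = 0.878), and 0.081 without WT replicate 2.

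The membrane-type MMPs act at the cell surface. Mmp14, which activates proMmp2 together with TIMP2, stood at 22.6, 45.8, 34.5 and 17.8 FPKM in C3_KO tumours 1 to 4, 19.4, 18.9, 26.9 and 21.4 FPKM in S1pr1_KO tumours and 25.7, 38.4, 43.6 and 25.6 FPKM in WT tumours. The highest value was in C3_KO replicate 2, the lowest in C3_KO replicate 4, and S1pr1_KO replicate 3 lay above the 2 lowest WT tumours, so the groups overlapped. The log2 fold change was -0.62 ± 0.30 in S1pr1_KO (edgeR adjusted p = 0.342) and -0.14 ± 0.30 in C3_KO (edgeR adjusted p = 0.915). Mmp15, the related MT2-MMP, stood at 35.8, 37.8, 29.2 and 33.9 FPKM in C3_KO tumours 1 to 4, 25.3, 23.3, 44.7 and 21.8 FPKM in S1pr1_KO tumours and 63.3, 20.7, 28.7 and 51.8 FPKM in WT tumours. WT held both its highest and its lowest value. Mmp24 was at 2.39 to 6.24 FPKM in C3_KO, 2.00 to 7.46 FPKM in S1pr1_KO and 4.75 to 6.67 FPKM in WT, and its counts are uncertain because BC029722 overlaps it on the opposite strand with 1.42 to 1.98 times its counts. The anchored MMPs Mmp17 and Mmp25 were at 0.188 to 0.753 and 0.231 to 2.67 FPKM over all tumours. Mmp25, known as leukolysin of human leukocytes, had its highest value in C3_KO replicate 3. Mmp16 ranged from 0.0163 to 0.321 FPKM. Of the remaining MMPs, Mmp19 was at 2.94 to 5.85 FPKM, Mmp23 at 1.36 to 3.55 FPKM and Mmp28, epilysin, at 0.533 to 1.05 FPKM, and Mmp21 at 0.0238 to 0.146 FPKM.

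TIMP1 and TIMP2 had lower means in both knockouts than in WT. Timp1, a broad MMP inhibitor, stood at 16.5, 29.9, 23.5 and 10.8 FPKM in C3_KO tumours 1 to 4, 12.4, 10.1, 14.1 and 18.5 FPKM in S1pr1_KO tumours and 23.8, 52.4, 34.9 and 16.6 FPKM in WT tumours. Replicate 2 was the highest WT tumour, and WT replicate 4 lay below S1pr1_KO replicate 4, so the groups overlapped. Its mean was 20.2 ± 8.34 FPKM in C3_KO, 13.8 ± 3.55 FPKM in S1pr1_KO and 31.9 ± 15.6 FPKM in WT (SD, n = 4 each). The log2 fold change was -1.21 ± 0.38 in S1pr1_KO (unadjusted p = 0.00700 by edgeR, adjusted p = 0.234) and -0.66 ± 0.38 in C3_KO (edgeR adjusted p = 0.765). The C3_KO value was -0.32 without WT replicate 2. The gene overlaps Syn1 on the opposite strand, with 0.0482 to 0.172 times its counts. Timp2 stood at 48.1, 104.5, 36.0 and 37.0 FPKM in C3_KO tumours 1 to 4, 46.4, 51.5, 51.8 and 61.7 FPKM in S1pr1_KO tumours and 98.8, 73.0, 88.0 and 53.6 FPKM in WT tumours. C3_KO replicate 2 was the highest and C3_KO replicate 3 the lowest of all. Timp2 had a log2 fold change of -0.48 ± 0.33 in C3_KO (edgeR adjusted p = 0.765) and -0.57 ± 0.33 in S1pr1_KO (edgeR adjusted p = 0.422), and the C3_KO value was -0.96 without C3_KO replicate 2.

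Timp3, which stays bound to the matrix and also inhibits ADAMTS proteases, stood at 66.4, 25.6, 11.0 and 46.3 FPKM in C3_KO tumours 1 to 4, 65.8, 54.0, 35.4 and 20.7 FPKM in S1pr1_KO tumours and 32.6, 32.9, 15.5 and 40.6 FPKM in WT tumours. C3_KO held both the highest and the lowest tumour. The log2 fold change was 0.29 ± 0.50 in C3_KO (edgeR adjusted p = 0.892) and 0.53 ± 0.50 in S1pr1_KO (edgeR adjusted p = 0.626), and the C3_KO value was -0.14 without C3_KO replicate 1. Its counts are uncertain, since Syn3 overlaps it on the opposite strand with 0.445 to 0.825 times its counts. Timp4, at 0.0736 to 0.413 FPKM over all tumours, had a log2 fold change of 0.28 ± 0.51 in C3_KO (edgeR adjusted p = 0.901) and 0.65 ± 0.51 in S1pr1_KO (edgeR adjusted p = 0.556). The C3_KO value was -0.051 without C3_KO replicate 2. Timp4 counts are uncertain too, since Syn2 overlaps it on the opposite strand with 3.02 to 14.0 times its counts.

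**Figure D4:**
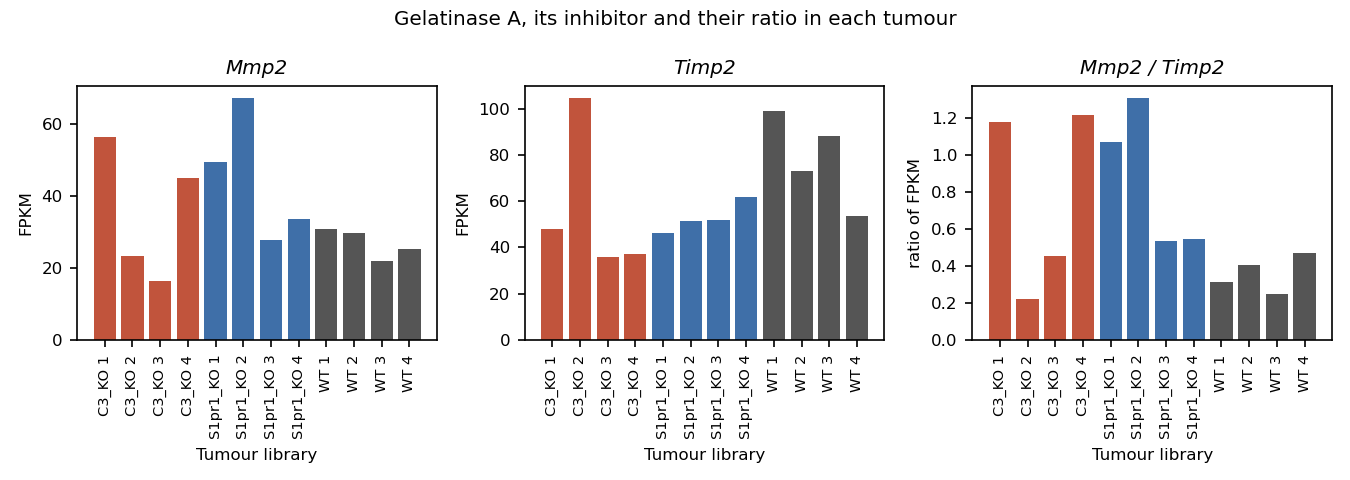
Level of Mmp2, level of Timp2 and the ratio of the 2 in FPKM in each tumour, C3_KO, S1pr1_KO and WT from left to right, 1 bar per tumour. The 4 S1pr1_KO ratios of 0.539 to 1.31 lie above the 4 WT ratios of 0.250 to 0.473, and C3_KO has ratios on both sides.

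The ratio of Mmp2 to Timp2, chosen after the values were seen and given with no test, was 1.07, 1.31, 0.539 and 0.546 in S1pr1_KO replicates 1 to 4 and 0.313, 0.409, 0.250 and 0.473 in WT replicates 1 to 4. All S1pr1_KO ratios were above all WT ratios, by the smallest margin between S1pr1_KO replicate 3 and WT replicate 4. In C3_KO the ratios were 1.18, 0.224, 0.454 and 1.22, on both sides of the WT range. Of the 3 protease to inhibitor ratios computed, the other two overlapped between all genotypes. Mmp9 over Timp1 was 0.0286 to 0.0315 in S1pr1_KO, 0.00284 to 0.125 in C3_KO and 0.00498 to 0.0329 in WT, and Mmp14 over Timp2 was 0.347 to 0.520 in S1pr1_KO, 0.438 to 0.959 in C3_KO and 0.260 to 0.525 in WT. Fibroblast markers summed to 1610 to 3030 CPM in S1pr1_KO, 1800 to 3000 CPM in C3_KO and 1260 to 3210 CPM in WT, with overlapping ranges. Adipocyte markers summed to 786, 683, 51.3 and 97.6 CPM in S1pr1_KO replicates 1 to 4, 87.0 to 237 CPM in C3_KO and 43.5 to 211 CPM in WT. All 10 adipocyte genes had values above 0 in S1pr1_KO against WT (median log2 fold change 2.59), none past an adjusted p of 0.05 by edgeR. The part of fibroblasts and adipocytes in the Mmp2 to Timp2 ratio was not tested.

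The hyalectanase ADAMTS proteases cut aggrecan, versican and related proteoglycans. Adamts1 stood at 8.41, 5.07, 29.5 and 15.2 FPKM in C3_KO tumours 1 to 4, 11.7, 6.46, 8.10 and 5.00 FPKM in S1pr1_KO tumours and 12.2, 8.03, 2.24 and 3.99 FPKM in WT tumours. C3_KO replicate 3 was the highest and WT replicate 3 the lowest. Adamts8 stood at 2.20, 2.61, 2.44 and 2.07 FPKM in C3_KO tumours 1 to 4, 2.08, 2.84, 2.54 and 1.99 FPKM in S1pr1_KO tumours and 1.45, 2.00, 1.22 and 1.63 FPKM in WT tumours. All C3_KO values were above all WT values, and S1pr1_KO replicate 4, at 1.99 FPKM, lay below WT replicate 2, at 2.00 FPKM. The mean was 2.33 ± 0.240 FPKM in C3_KO, 2.36 ± 0.400 FPKM in S1pr1_KO and 1.57 ± 0.330 FPKM in WT (SD, n = 4 each). For Adamts8 the log2 fold change was 0.57 ± 0.23 in C3_KO (unadjusted p = 0.0272 by edgeR, adjusted p = 0.765) and 0.58 ± 0.23 in S1pr1_KO (unadjusted p = 0.0233 by edgeR, adjusted p = 0.270). Blood endothelial markers had 10 of 10 genes higher in each knockout (median log2 fold change 0.46 in C3_KO and 0.68 in S1pr1_KO), none past an adjusted p of 0.05 by edgeR, and their part in the levels of Adamts1, Adamts8 and Adamts9 was not tested. Groups that did not overlap were found for 2 of 43 genes in C3_KO against WT (4.65%), against 3.04% of all genes. Both were higher in C3_KO, as were 1.32% of all genes. None was found in S1pr1_KO against WT, where 7.58% of all genes did not overlap. In S1pr1_KO against C3_KO there was none either, against 1.31% of all genes.

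Adamts9 stood at 0.634, 0.295, 1.86 and 0.533 FPKM in C3_KO tumours 1 to 4, 0.683, 0.955, 0.379 and 0.396 FPKM in S1pr1_KO tumours and 0.398, 0.455, 0.232 and 0.385 FPKM in WT tumours. C3_KO replicate 3 was again highest, and C3_KO replicate 2 lay within the WT range. The log2 fold change in C3_KO was 1.18 ± 0.51 (unadjusted p = 0.0365 by edgeR, adjusted p = 0.765), and 0.41 without C3_KO replicate 3. Adamts4 was at 0.499 to 4.31 FPKM in C3_KO, 0.615 to 2.04 FPKM in S1pr1_KO and 0.524 to 2.86 FPKM in WT. Adamts5, the neighbour of Adamts1 on chromosome 16, was at 0.479 to 2.51 FPKM over all tumours. Adamts15, the neighbour of Adamts8 on chromosome 9, was at 1.18 to 3.47 FPKM, and Adamts20 at 0.0247 to 0.138 FPKM.

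Among the proteases that process procollagen, Bmp1 had the smallest unadjusted p of the 43 genes in both comparisons with WT. Bmp1, the procollagen C-proteinase, stood at 6.70, 7.74, 8.78 and 7.00 FPKM in C3_KO tumours 1 to 4, 7.37, 7.33, 6.34 and 5.34 FPKM in S1pr1_KO tumours and 4.14, 5.42, 3.86 and 4.13 FPKM in WT tumours. All C3_KO values were above all WT values, and in S1pr1_KO only replicate 4, at 5.34 FPKM, lay below WT replicate 2, at 5.42 FPKM. The mean was 7.55 ± 0.925 FPKM in C3_KO, 6.59 ± 0.962 FPKM in S1pr1_KO and 4.39 ± 0.697 FPKM in WT (SD, n = 4 each). Against WT, Bmp1 had a log2 fold change of 0.78 ± 0.18 in C3_KO (unadjusted p = 0.000892 by edgeR, adjusted p = 0.765) and 0.59 ± 0.18 in S1pr1_KO (unadjusted p = 0.00680 by edgeR, adjusted p = 0.234). Fibroblast markers had 9 of 10 genes higher in C3_KO than in WT (median log2 fold change 0.49) and 10 of 10 in S1pr1_KO (median 0.72), none of them past an adjusted p of 0.05 by edgeR, and their part in the Bmp1 values was not tested. Adamts2, the main procollagen N-propeptidase, was at 4.61 to 9.96 FPKM in C3_KO, 5.73 to 8.32 FPKM in S1pr1_KO and 4.12 to 7.47 FPKM in WT. Adamts3, known to process the growth factor VEGF-C as well as procollagen, was at 0.495 to 1.63 FPKM, and Adamts14 at 0.239 to 1.90 FPKM over all tumours.

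Of the COMP-cleaving ADAMTS proteases, named for the cartilage protein they cut, Adamts12 stood at 0.818, 0.978, 1.48 and 1.38 FPKM in C3_KO tumours 1 to 4, 1.48, 1.77, 0.318 and 1.86 FPKM in S1pr1_KO tumours and 0.417, 1.19, 0.565 and 0.387 FPKM in WT tumours. In S1pr1_KO, 3 values were above all WT values and replicate 3 was below all of them. Adamts12 had a log2 fold change of 1.08 ± 0.50 in S1pr1_KO (unadjusted p = 0.0470 by edgeR, adjusted p = 0.318) and 0.86 ± 0.49 in C3_KO (edgeR adjusted p = 0.765). Without S1pr1_KO replicate 3 the S1pr1_KO value was 1.46 (edgeR adjusted p = 0.0499), in a fit that called 4.25% of all genes. Adamts7 was at 1.63 to 3.93 FPKM over all tumours, and Adamts13, which cuts von Willebrand factor, at 0.00302 to 0.0694 FPKM. Adamts10, a protease of fibrillin microfibrils, was at 1.71 to 6.96 FPKM in C3_KO, 2.34 to 9.27 FPKM in S1pr1_KO and 3.37 to 6.42 FPKM in WT. Adamts6 was at 0.132 to 0.470, 0.112 to 0.459 and 0.0872 to 0.322 FPKM in C3_KO, S1pr1_KO and WT. Adamts16 to Adamts19 were low. Adamts17, also tied to fibrillin, was at 0.150 to 1.57 FPKM, Adamts18 at 0.0722 to 0.409 FPKM and Adamts16 at 0.0398 to 0.259 FPKM. Adamts19 was the lowest tested gene by median, at 0.00471 FPKM.

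**Figure D5:**
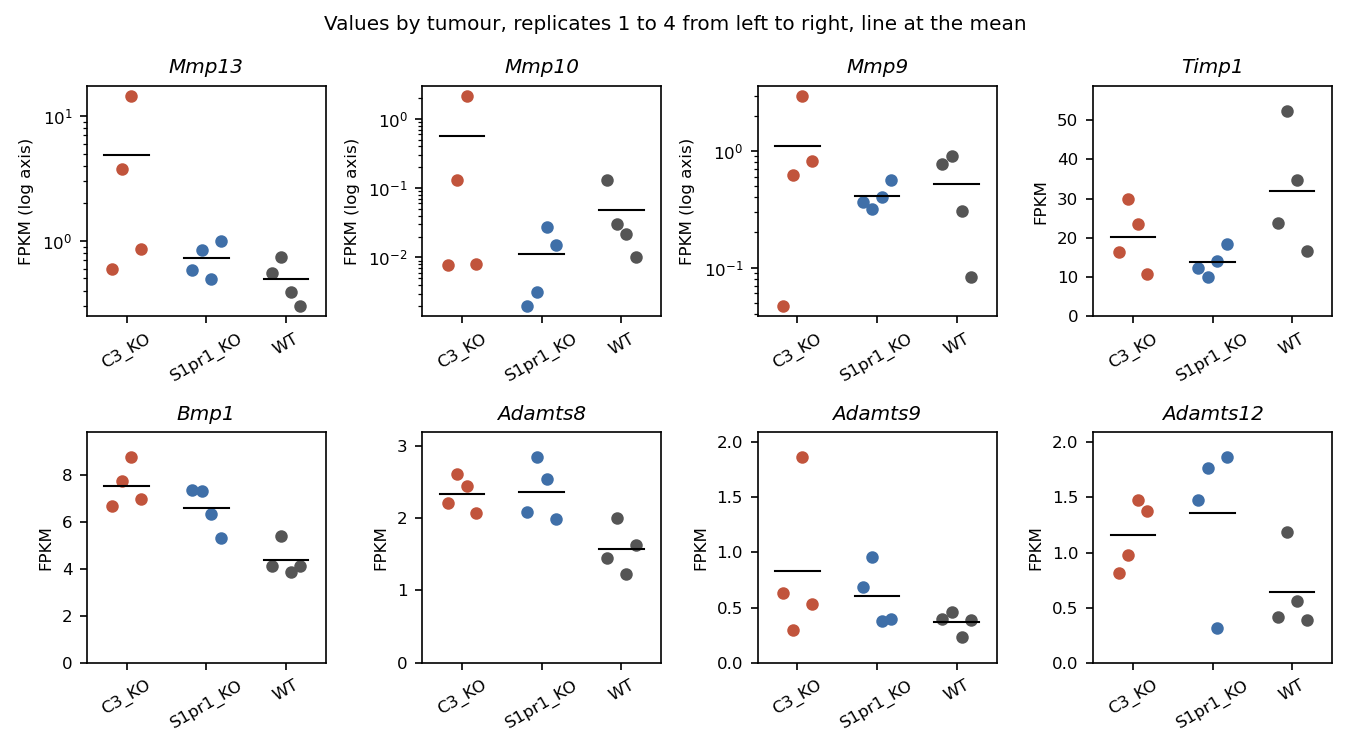
FPKM of 8 genes in each tumour, replicates 1 to 4 from left to right within C3_KO, S1pr1_KO and WT, with a line at the mean of 4 and log axes where labelled. The value of 0 for Mmp10 in S1pr1_KO replicate 1 is drawn at 0.002. Mmp13 and Mmp10 are highest in C3_KO replicate 3, all C3_KO values of Bmp1 and Adamts8 are above those of WT, and Adamts12 has 1 low tumour in S1pr1_KO.

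Genes that act with these proteases also had no member past an adjusted p of 0.05 by edgeR. Of 20 matrix substrates, 18 had a higher and 2 a lower value in C3_KO than in WT (median log2 fold change 0.57), and 16 were higher and 4 lower in S1pr1_KO (median 0.52), against medians of 0.053 and 0.026 for all genes. The smallest p were those of Fbn1, the microfibril protein fibrillin 1, with a log2 fold change of 1.09 ± 0.35 in C3_KO and 1.24 ± 0.35 in S1pr1_KO (SE, edgeR adjusted p = 0.765 and 0.216). Col1a1, Col1a2, Dcn and Lum are both in this list and among the fibroblast markers. ADAM sheddases, cell surface relatives that release membrane proteins, had 8 of 9 genes higher in each knockout (medians 0.46 in C3_KO and 0.55 in S1pr1_KO), and Adam19 had a log2 fold change of 0.79 ± 0.36 in C3_KO and 1.01 ± 0.36 in S1pr1_KO (SE).

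ADAMTS-like glycoproteins, which resemble ADAMTS proteases but have no protease domain, had 6 of 7 tested genes higher in each knockout, with medians of 0.58 in C3_KO and 0.66 in S1pr1_KO. Adamtsl2, a fibrillin-binding glycoprotein, had a log2 fold change of 1.68 ± 0.33 in C3_KO (edgeR adjusted p = 0.668) and 0.65 ± 0.32 in S1pr1_KO. Papln had 1.48 ± 0.44 in C3_KO and 1.28 ± 0.44 in S1pr1_KO. Procollagen processing partners had 7 of 8 genes higher in each knockout, with medians of 0.29 in C3_KO and 0.28 in S1pr1_KO. The smallest p of that list in C3_KO was of a lower gene, Pcolce2. Its log2 fold change was -1.24 ± 0.49 (unadjusted p = 0.0255 by edgeR, adjusted p = 0.765). In S1pr1_KO the smallest p was of Tll2, at 3.15 ± 1.19 (unadjusted p = 0.0199 by edgeR, adjusted p = 0.262), which was at most 0.0731 FPKM in any library. Plasminogen activation and pericellular control genes were divided, with 7 higher and 5 lower in C3_KO and 6 higher and 6 lower in S1pr1_KO. Plaur, the urokinase receptor, had a log2 fold change of 1.44 ± 0.82 in C3_KO (unadjusted p = 0.101 by edgeR). It was at 19.7 FPKM in C3_KO replicate 3, the library that was highest for Mmp13, and at most 3.80 FPKM in any other. Lrp1, of the same list, had 1.05 ± 0.33 in S1pr1_KO (unadjusted p = 0.00735 by edgeR, adjusted p = 0.236). Inducing factors and cytokines had 11 higher and 6 lower in C3_KO and 10 higher and 7 lower in S1pr1_KO. Runx2, a transcription factor known to bind the Mmp13 promoter, had a log2 fold change of -0.85 ± 0.26 in C3_KO and -0.60 ± 0.26 in S1pr1_KO. Il1b, which induces MMPs, had 2.21 ± 0.85 in C3_KO, with 19.1 FPKM in C3_KO replicate 3. The 17 genes of this list summed to 1090 CPM in that library, within the 907 to 1560 CPM of WT tumours. The highest sum was 1920 CPM, in S1pr1_KO replicate 3. Of the 17 genes, 6 were highest in C3_KO replicate 3, against 12.6% of all tested genes.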

How the data were processed

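RNA of 12 primary tumours was measured, 4 for each of 3 genotypes taken from the genotype labels, with replicates numbered in accession order. QIAzol extraction of RNAlater-stabilized tissue and Illumina library preparation by a company are given per the labels. The authors deposited whole-number counts per gene and an FPKM table, which follows from the counts, the deposited gene length and the column total. Per the submitters' processing notes, StringTie and build GRCm39 (mm39) were named. Which program counted the reads, and whether by strand, is not given in the sources used here.

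Deposited counts were tested with edgeR 4.0.16 in R 4.3.3. Its filter on low counts kept 30660 of 56860 genes, libraries were scaled by TMM, and a robust quasi-likelihood F-test was run on 1 model of the 12 libraries, with genotype as its term (9 residual degrees of freedom). Benjamini-Hochberg adjustment covered all tested genes. Levels in the text are FPKM and CPM recomputed on TMM-scaled totals. Alternatives used DESeq2 1.42.0, limma 3.58.1 with voom or on log2 of the deposited FPKM plus a pseudocount of 1 or 0.1, other scalings and filters, and left-out libraries. The genes described and the lists were chosen with earlier results of these data known. Genes named from the lists of genes that act with these proteases had among the smallest p of their list in a comparison with WT. Values per library are given for genes whose groups did not overlap, genes under an unadjusted p of 0.05, the 8 highest by median and the 4 of widest range of log2 CPM (prior count 2). Overlapping genes were taken from GENCODE M21, an older build, by name alone.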

Additional observations from a re-analysis of the deposited data

Results flagged for a closer look

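A value of Adamts12 lay far from the others of its group. In S1pr1_KO, Adamts12 was at 0.318 FPKM in replicate 3, against 1.48, 1.77 and 1.86 FPKM in the other tumours. On log2 CPM (prior count 2), the scale of the test, the gap to the nearest value was 0.867 of the range of the group, above Dixon's 95% critical value for 4 samples. On FPKM the gap was 0.748 of the range, below that value. The test was made for 16 genes in 3 genotypes, 48 groups in all, with 1 flag, and chance flags about 1 in 20 groups.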

How the results depend on the processing

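The results were recomputed under 22 alternatives. Of 503 values of log2 fold change over 23 results, 490 kept their direction and their side of an adjusted p of 0.05, 6 passed it and 7 turned sign. In C3_KO against WT, the count of genes called was 0 with edgeR and 1 with DESeq2 (Mmp13), which called 0.24% of all genes. In S1pr1_KO against WT it was 0 with edgeR and 7 with limma-voom and quality weights (Adamts3, Adamts6, Adamts8, Adamts12, Bmp1, Mmp2 and Mmp24). Limma-voom called 25.5% of all genes in that comparison. With it 72.1% of the 43 genes were above 0, against 58.1% with edgeR. Leaving out each library in turn gave 0 to 1 in that comparison and 0 in both others. The 1 was Adamts12 without S1pr1_KO replicate 3, in a fit that called 4.25% of all genes. The causes were not tested.

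Mmp9 in C3_KO against WT was 1.09 on the log2 scale, -0.062 without C3_KO replicate 3 and -0.011 without that library and S1pr1_KO replicates 1 and 4. Mmp9 in S1pr1_KO against WT was -0.33, but 0.79 with limma-voom, 0.13 on log2(FPKM + 0.1) and 0.081 without WT replicate 2. In C3_KO, Timp3 was -0.14 without C3_KO replicate 1 and Timp4 was -0.051 without C3_KO replicate 2. Leaving out each library in turn, Mmp9 ranged from -0.062 to 1.51 in C3_KO and from -0.63 to 0.081 in S1pr1_KO, Timp3 in C3_KO from -0.14 to 0.60 and Timp4 in C3_KO from -0.051 to 0.55. Over the same fits, Mmp13 in C3_KO ranged from 1.82 to 3.67, Bmp1 in C3_KO from 0.70 to 0.90 and Timp1 in S1pr1_KO from -1.39 to -0.87. Scaling by library totals or by the upper quartile moved the median of all genes to 0.19 and 0.13 in C3_KO against WT and to 0.20 and 0.15 in S1pr1_KO against WT. No paired analysis was possible because the labels give no replicate numbers shared between genotypes. Depth limits Mmp1a, Mmp1b, Mmp20, Mmp10 and Adamts19, whose counts were near 0 in several libraries.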
